A study of Mus musculus with 2 samples.

Results

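The genes described here code for the enzymes that make and use glutathione, for the thioredoxin and peroxiredoxin systems, for superoxide dismutases and catalase, and for the sensor that controls many of them. They were chosen by name from the array annotation: the glutathione transferases (Gst and Mgst), glutathione peroxidases (Gpx), peroxiredoxins (Prdx), thioredoxins and their reductases (Txn, Txnrd), superoxide dismutases (Sod), and Cat, Nqo1, Hmox1, Hmox2, Gclc, Gclm, Gsr, Gss, Nfe2l2, Keap1 and Srxn1. The rule found 53 of 18193 genes, on 95 of 45101 probe sets. Only probe sets with a single gene symbol were taken, and Prdx1, Prdx5 and Prdx6 had none.

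One array held RNA from uterine stromal cells, the connective tissue cells around the uterine epithelium, of Msx1Msx2-null mice, in which a PRcre line crossed to floxed Msx1 and Msx2 alleles removed both homeobox genes. The other held RNA from stromal cells of floxed control mice. All were C57BL/6 females taken on day 4 of pregnancy. RNA of each genotype was pooled, from 5 mice in the design text and the treatment protocol but from 4 in the extraction protocol, and hybridised to 1 Affymetrix array. PRcre puts Cre under the progesterone receptor gene, which is also active in uterine epithelium and muscle, so deletion need not be limited to stroma. There was 1 array per genotype, so no error between mice and no p-value could be given, and genotype, pool and hybridisation cannot be told apart.

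Glutathione is a small thiol made from glutamate, cysteine and glycine. Glutamate-cysteine ligase, a catalytic (Gclc) and a modifier (Gclm) subunit, makes the limiting bond, and glutathione synthetase (Gss) adds glycine. Peroxidases spend glutathione on peroxides, transferases attach it to electrophiles and drugs, and glutathione reductase (Gsr) restores it with NADPH. Thioredoxin and peroxiredoxins form a parallel thiol relay. The transcription factor Nrf2 (Nfe2l2), held down by Keap1, switches on many of these genes through antioxidant response elements. In the uterus such enzymes are known to act in the endometrium around implantation.

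Promoter windows are printed here for the 4 members that passed 2-fold on measured signals. They let the reader see the sequence around an annotated start of the genes that differed most. Each is 300 bases of RefSeq sequence (GRCm38.p6), 5′ to 3′ on the gene's strand, of which 250 lie before that annotated start. Capitals mark matches to the core of the antioxidant response element, TGACNNNGC, on either strand. Gsta2 is at chr9:78347096-78347395 (minus strand), Gpx2 at chr12:76795505-76795804 (minus), Gclm at chr3:122245307-122245606 (plus) and Gstm7 at chr3:107931565-107931864 (minus).
Gsta2: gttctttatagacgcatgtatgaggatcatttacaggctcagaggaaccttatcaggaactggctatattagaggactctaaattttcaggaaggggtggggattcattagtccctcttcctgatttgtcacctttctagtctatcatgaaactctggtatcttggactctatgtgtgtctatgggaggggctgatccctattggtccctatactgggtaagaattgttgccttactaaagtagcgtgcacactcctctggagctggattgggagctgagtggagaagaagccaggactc
Gpx2: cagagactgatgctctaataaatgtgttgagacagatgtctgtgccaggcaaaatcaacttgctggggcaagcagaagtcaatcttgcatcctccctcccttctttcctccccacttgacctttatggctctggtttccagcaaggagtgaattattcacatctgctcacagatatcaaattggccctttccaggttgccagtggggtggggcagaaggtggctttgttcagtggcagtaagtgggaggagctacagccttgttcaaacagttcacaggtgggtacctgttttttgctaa
Gclm: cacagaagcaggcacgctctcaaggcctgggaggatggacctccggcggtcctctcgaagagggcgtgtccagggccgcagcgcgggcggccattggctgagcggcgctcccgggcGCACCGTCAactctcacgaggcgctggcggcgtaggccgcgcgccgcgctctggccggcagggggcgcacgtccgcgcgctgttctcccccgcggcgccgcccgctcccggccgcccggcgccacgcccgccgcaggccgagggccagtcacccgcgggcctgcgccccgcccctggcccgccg
Gstm7: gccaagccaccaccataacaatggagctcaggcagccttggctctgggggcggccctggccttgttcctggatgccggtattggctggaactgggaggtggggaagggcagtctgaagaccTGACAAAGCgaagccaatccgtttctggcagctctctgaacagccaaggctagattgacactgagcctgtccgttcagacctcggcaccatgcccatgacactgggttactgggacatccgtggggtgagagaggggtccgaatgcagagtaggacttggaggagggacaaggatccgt

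The core was found in Gclm, on the minus strand with its match at base -134 from the start, and in Gstm7, on the plus strand at base -129. No match lay in the windows of Gsta2 and Gpx2. Gstm7 has another annotated start further upstream, inside the printed window and before the match. The match of Gstm7 thus lies downstream of that other start, whose own window, overlapping the one printed, held no match. Of the 53 genes, 47 had a promoter in the table, with 63 windows in all. The core was in 9 of these windows (14.3%), those of Gclm, Gsta3, Gstm5, Gstm7, Mgst1, Nfe2l2, Sod1, Srxn1 and Txnrd1, against 4071 of 32851 windows of all genes (12.4%). The homeodomain core TAATTG was in 3 windows (4.76%), of Gpx4, Gstm1 and Txnrd1, against 8% of all windows. A match is a string of letters and not a shown site.

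Values are MAS5 signals, the linear probe set intensities that the authors deposited. A gene is given by its brightest probe set, and a signal below the median of an array (30.1 in the null and 31.0 in the control array) is treated as unmeasured and raised to that floor. Of the 53 members, 43 exceeded the floor on each array and 1, Gsta3, did so in the null array alone. The other 9, Gstm3, Gstm6, Gsto2, Gstp3, Gstt4, Mgst2, Gpx5, Gpx6 and Sod3, were under it in both, which does not show that they are silent. Sod3, extracellular superoxide dismutase, lay just under the floor at 29.9 in the null array, with a lower signal in the control array.

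**Figure D1:**
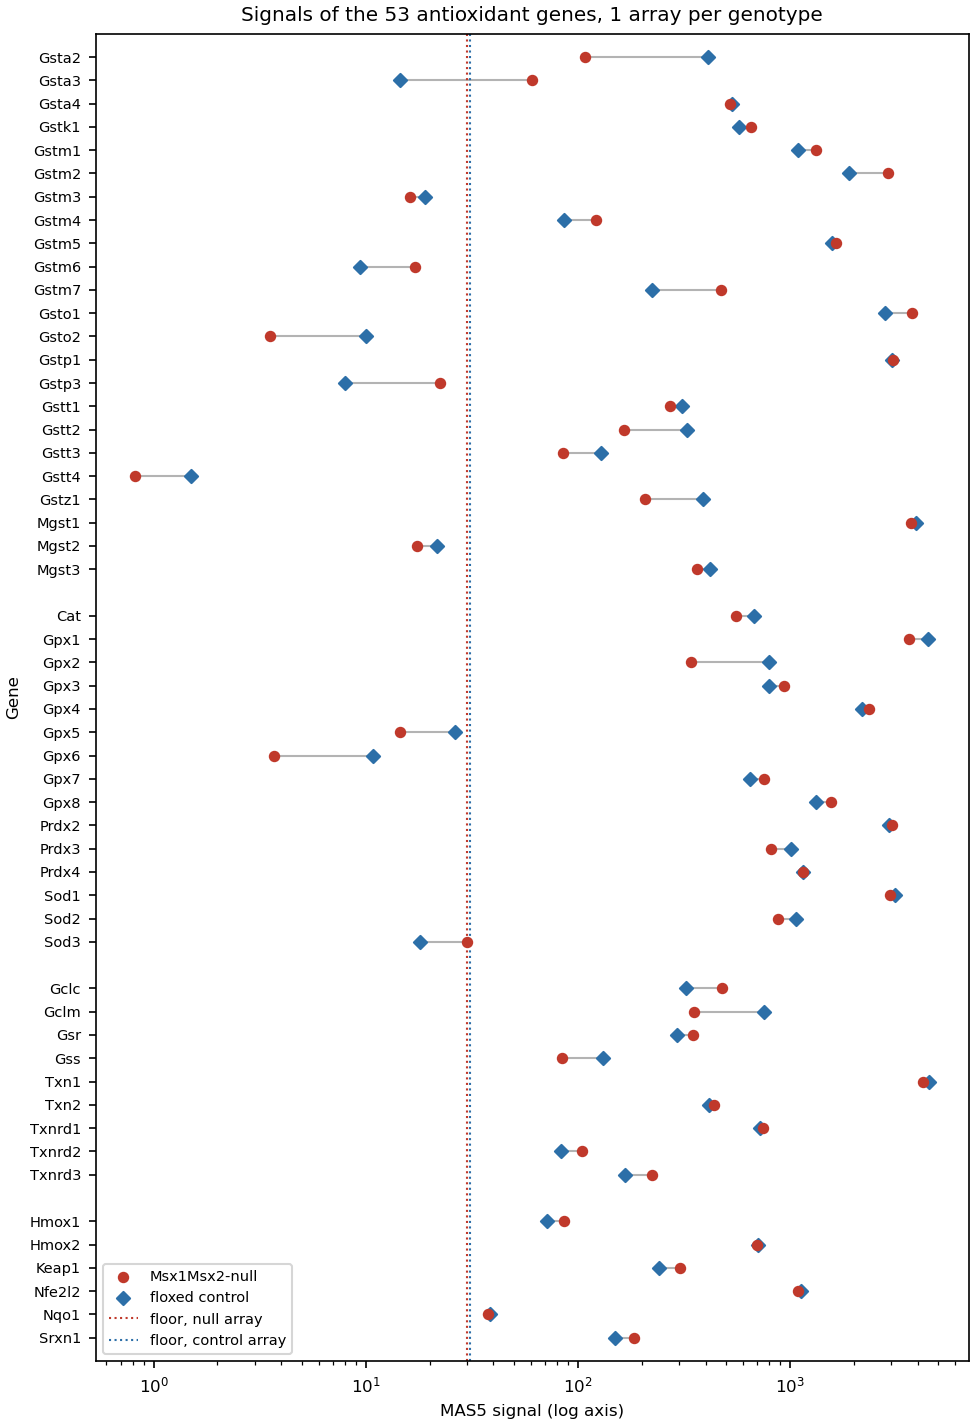
MAS5 signal of each of the 53 members (log axis) in the Msx1Msx2-null array (red circles) and the floxed control array (blue diamonds), 1 array each, grouped from top to bottom into transferases, peroxidases with dismutases, glutathione synthesis with thioredoxin, and the Nrf2 axis. Most pairs of points lie close together; Gsta2, Gpx2, Gclm and Gstm7 are the pairs above the floor (dotted lines) that lie more than 2-fold apart.

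Most members were close in both arrays. Of the 44 measured, 1 was at least 2-fold higher in the null array (Gstm7) and 3 at least 2-fold lower (Gsta2, Gpx2 and Gclm), together 9.09%. Over all 11833 measured genes 1.59% were 2-fold higher and 1.8% lower, together 3.39%. At 1.5-fold, 3 members were higher and 7 lower, together 22.7%, against 6.79% higher, 6.92% lower and 13.7% in all over the whole array. The median log2 ratio, null minus control, was 0.03 for the members and 0.02 for all genes. Of the 44 ratios 24 were positive, as were 52.3% of all genes. With so few members and no replicates, these shares describe the arrays and carry no test. As a scale for noise, the log2 ratio of a single probe set had an SD of 0.27, from 4690 genes with a pair of measured probe sets, and 21 members lay within that distance of 0. This SD covers probe noise only, not differences between mice or hybridisations.

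The glutathione transferases are described by class, with no test between classes. The mu class holds soluble enzymes that act on many electrophiles and whose genes lie side by side in a cluster. All 5 measured mu genes had ratios above 0, as did 52.3% of all genes. Of the 5, 2 were 1.5-fold higher, as were 6.79% of all genes. Gstm7 had a signal of 471 in the null array and 223 in the control array, 2.12-fold higher. Its other probe set was dim, with 33.7 in the null and 22.7, under the floor, in the control array, and the log2 ratio was 0.60 with the median over both probe sets and 0.98 with log2(signal + 32), each under 2-fold. Gstm2 had 2894 in the null and 1902 in the control array, 1.52-fold higher. Gstm4 had 122 and 85.9 in the null and control arrays, a log2 ratio of 0.50. These ratios are all larger than the probe set SD. Gstm1 had 1328 in the null and 1089.6 in the control array, a log2 ratio of 0.29, and its other 3 measured probe sets gave 0.18 to 0.35. Gstm5, at the edge of the cluster, differed little, with 1649.8 in the null and 1572 in the control array (log2 ratio 0.07). The median of the class was 0.50. Mu class genes are close relatives in sequence, so a probe set can pick up signal of a neighbour, and their 5 ratios need not be separate measurements.

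The theta class, an older branch of the family, also lies in a cluster. Its 3 measured genes had ratios below 0, as did 47.7% of all genes. Of the 3, 2 were 1.5-fold lower, as were 6.92% of all genes. Gstt2 had 165 in the null and 328 in the control array, a log2 ratio of -0.996 that stopped just short of 2-fold. Gstt3 had 85.2 in the null and 128 in the control array, 1.51-fold lower. Gstt1 had 273 and 309.7 in the null and control arrays, a log2 ratio of -0.18, within the probe set SD. Gstz1, the zeta class enzyme of tyrosine breakdown also known as maleylacetoacetate isomerase, had 208 in the null and 389 in the control array and was 1.87-fold lower. Each of these 4 genes had a single measured probe set, so no other probe set bears on them.

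**Figure D2:**
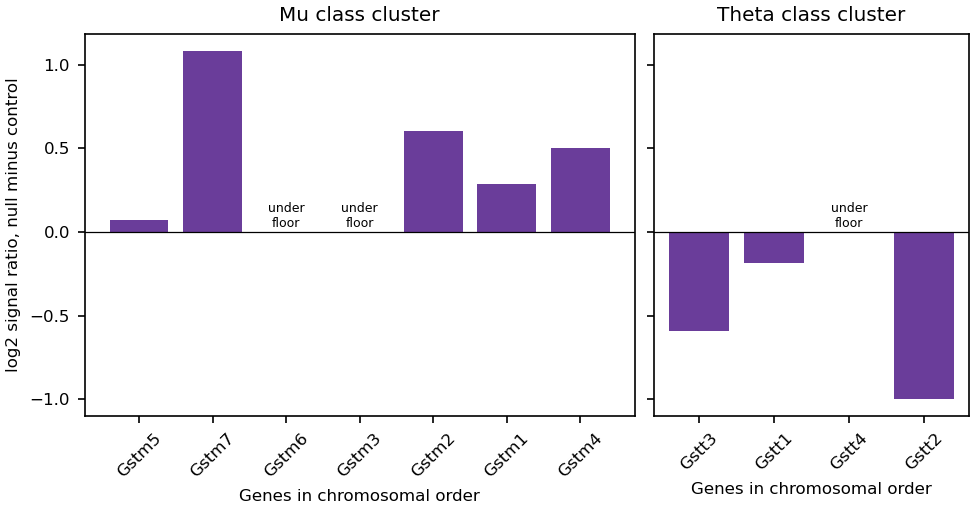
Log2 signal ratio, null minus control, of the mu class genes (left) and theta class genes (right), drawn in their order along the chromosome in the RefSeq gene table; genes under the floor in both arrays are marked and have no bar. The 5 measured mu genes lie above 0, from 0.07 to 1.08, and the 3 measured theta genes below 0, from -0.996 to -0.18. Of all measured genes, 52.3% were above 0 and 47.7% below.

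Alpha class genes, known for detoxifying lipid peroxidation products, went in opposite directions. Gsta2 had the lowest ratio of the measured members, with 108 in the null and 410.4 in the control array, 3.79-fold lower. Gsta3 had 60.7 in the null array and 14.5, under the floor, in the control array, so it was at least 1.96-fold higher. Just past 2-fold were its log2 ratios with median centring (1.01) and quantile normalization (1.01). With log2(signal + 32) the log2 ratio of Gsta3 was 0.99, under 2-fold. Gsta3 was unmeasured with the 65th percentile floor. Its other probe set was under the floor in both. Gsta4, an enzyme with activity on hydroxynonenal, had 522 in the null and 535 in the control array, a log2 ratio of -0.03. The alpha genes are also close relatives, and Gsta2 and Gsta3 had 1 measured probe set each.

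The remaining transferases were within 1.5-fold. Gsto1, the omega class enzyme with thioltransferase activity, had 3773 in the null and 2797 in the control array (log2 ratio 0.43), and its other probe set gave 0.29. Gstp1, the pi class enzyme, had 3051 and 3026 in the null and control arrays, a log2 ratio of 0.01. Gstk1, the kappa class enzyme of mitochondria and peroxisomes, had 655 in the null and 576 in the control array (0.19). The membrane-bound microsomal enzymes Mgst1 and Mgst3 had log2 ratios of -0.07 and -0.20. Mgst1 was bright, with 3719 in the null and 3905 in the control array. Over all 17 measured transferases, 3 were 1.5-fold higher and 4 were 1.5-fold lower, and the median of 0.01 hides this spread. The shares over all genes were 6.79% higher and 6.92% lower.

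Glutathione synthesis showed a split between the subunits of its limiting enzyme. Gclm, the modifier subunit, had 354 in the null and 754 in the control array and was 2.13-fold lower. Its other probe set had 54.5 in the null and 120.1 in the control array, a log2 ratio of -1.14, close to the -1.09 of the brighter one. Gclm was the single member past 2-fold with another measured probe set, and both gave the same direction and size. Gclc, the catalytic subunit, had 477 in the null and 322 in the control array, a log2 ratio of 0.57 just under 1.5-fold. Its other probe set had 386 and 329 in the null and control arrays, a log2 ratio of 0.23 within the probe set SD. Both probe sets of Gclc thus lay above 0 and both of Gclm below it. Gss had 84.5 in the null and 131 in the control array, 1.55-fold lower, and -0.27 on its other probe set. Gsr had 349 in the null and 292 in the control array, a log2 ratio of 0.26, but its other probe set gave -0.19, so its direction was not settled.

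Of the measured glutathione peroxidases, Gpx2 alone passed 1.5-fold. Gpx2, known best from the epithelium of the gut, had 342 in the null and 795 in the control array and was 2.32-fold lower, on its only probe set. Gpx1, the cytosolic peroxidase of nearly all cells, had 3625 in the null and 4488 in the control array, a log2 ratio of -0.31. Gpx3, the secreted plasma enzyme, had 937 in the null and 798 in the control array (0.23). Gpx4, which reduces lipid hydroperoxides in membranes and blocks ferroptosis, had 2367 in the null and 2190.4 in the control array (0.11), with 0.31 on its other probe set. Gpx7 and Gpx8, peroxidases of the endoplasmic reticulum, had log2 ratios of 0.22 and 0.24. Apart from Gpx2, the measured Gpx genes thus ranged from -0.31 to 0.24.

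Of the peroxiredoxins, which remove hydrogen peroxide with thioredoxin, only Prdx2, Prdx3 and Prdx4 were members. Each was within 1.5-fold on its brightest probe set. Prdx2, the abundant cytosolic form, had 3009 in the null and 2912 in the control array (log2 ratio 0.05), but -0.44 on its other probe set. Prdx3, the mitochondrial form, had 814 in the null and 1008 in the control array (-0.31). Prdx4, the form of the endoplasmic reticulum, had 1152 and 1146 in the null and control arrays (0.01). Its dimmer probe sets disagreed, with 98.2 in the null and 39.5 in the control array on an _x_at probe set, a log2 ratio of 1.31, and -0.35 on the other. No direction can be given for Prdx2 or Prdx4.

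Thioredoxin itself differed little. Txn1, the cytosolic thioredoxin, had 4249 in the null and 4520.4 in the control array (log2 ratio -0.09). Txn2, the mitochondrial one, had 440.2 in the null and 415 in the control array (0.09), with 0.12 and 0.14 on its other probe sets. Txnrd1, the cytosolic selenoenzyme that recharges thioredoxin, had 745 and 721 in the null and control arrays (0.05). A dimmer probe set of Txnrd1 had 17.7, under the floor, in the null and 37.2 in the control array, and the log2 ratio was -0.13 with the median over probe sets, so its direction was not settled. Txnrd2, of mitochondria, and Txnrd3, which is prominent in testis, had 0.33 and 0.43, each with another measured probe set below 0.

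The dismutases, which turn superoxide into hydrogen peroxide, and catalase, which breaks that peroxide down, were within 1.5-fold. Sod1, the cytosolic copper-zinc dismutase, had 2965 in the null and 3135 in the control array (log2 ratio -0.08), and its other 3 measured probe sets gave -0.27 to 0.14. Sod2, the mitochondrial manganese dismutase, had 879 in the null and 1066 in the control array (-0.28), with -0.36 and -0.21 on its other measured probe sets. Cat, the peroxisomal catalase, had 557 in the null and 674 in the control array (-0.27), with -0.18 on its other probe set. Sod2 and Cat were thus below 0 on every measured probe set, by about the size of the probe set SD. Some members were also sorted by compartment, an incomplete grouping made after the values were seen. The mitochondrial genes Sod2, Prdx3, Txn2 and Txnrd2 ranged from -0.31 to 0.33. Gpx7, Gpx8 and Prdx4, of the endoplasmic reticulum, ranged from 0.01 to 0.24, with the direction of Prdx4 not settled. Left out were the microsomal Mgst1 (-0.07) and Mgst3 (-0.20), and Gstk1 (0.19) of mitochondria and peroxisomes, so no compartment is read as going one way.

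No gene of the Nrf2 axis passed 1.5-fold. Nfe2l2, the transcription factor Nrf2, had 1087 in the null and 1127 in the control array (log2 ratio -0.05), and 0.01 on its other probe set. Keap1, its repressor, had 302 in the null and 241 in the control array (0.33), whereas its dimmer probe set had 42.2 in the null and 59.2 in the control array (-0.49), so its direction was not settled. Nqo1, the quinone reductase often used to read Nrf2 activity, was near the floor, with 37.6 in the null and 38.7 in the control array (-0.04). Hmox1, the inducible heme oxygenase, had 86.4 and 71.2 in the null and control arrays (0.28), and Hmox2, the constitutive one, had 696 in the null and 703 in the control array (-0.01). Srxn1, the sulfiredoxin that repairs overoxidised peroxiredoxins, had 184 in the null and 149.8 in the control array (0.29), but -0.37 on its other measured probe set.

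**Figure D3:**
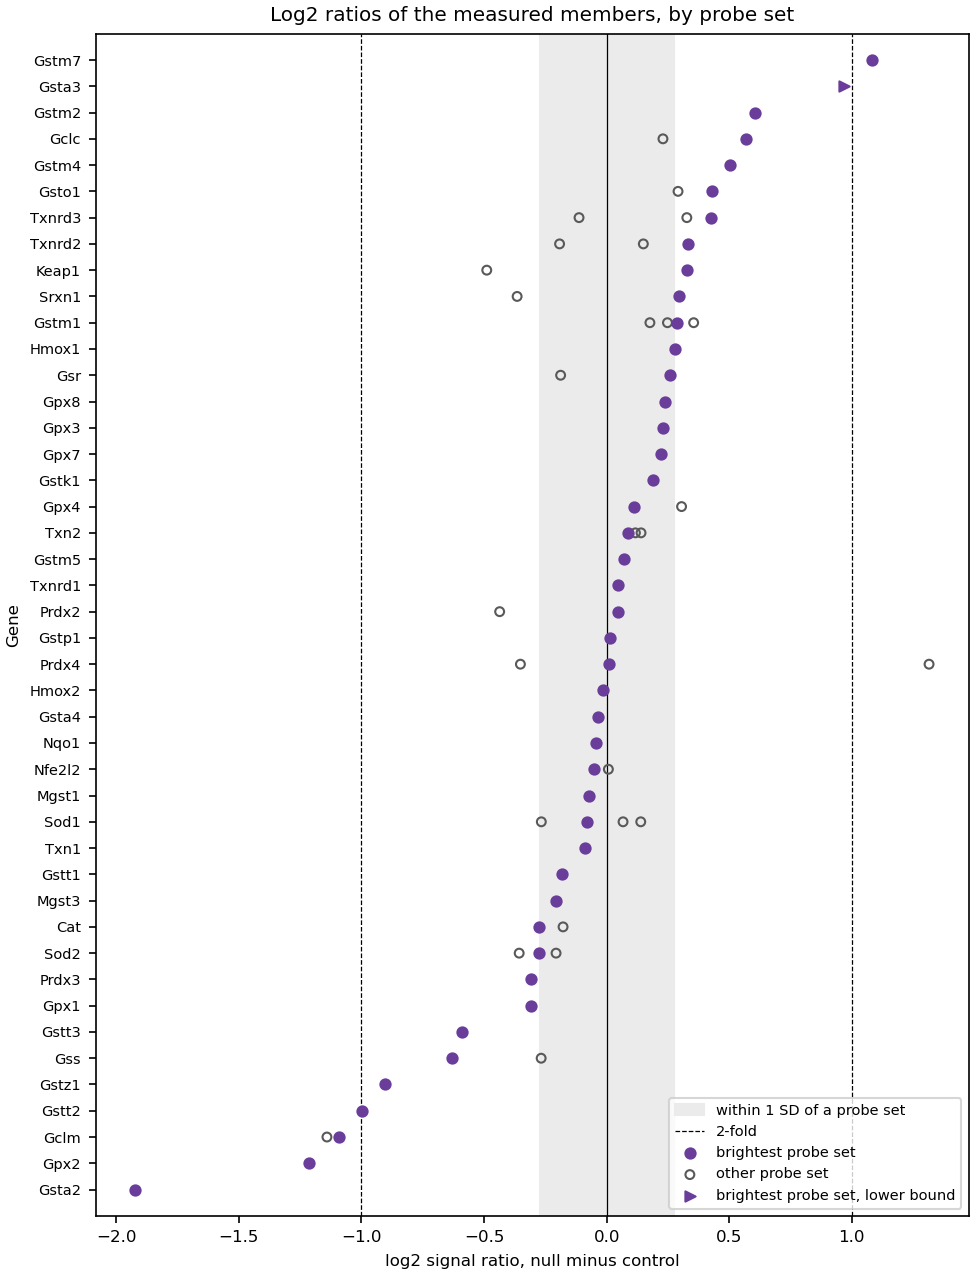
Log2 signal ratio, null minus control, of the 44 measured members, sorted by the brightest probe set (filled), with its other measured probe sets (open); the grey band is 1 SD of a single probe set (0.27) and dashed lines mark 2-fold. Gclm has both probe sets past 2-fold lower. Probe sets lie on both sides of 0 for Keap1, Srxn1, Prdx2, Prdx4, Gsr, Nfe2l2, Sod1, Txnrd2 and Txnrd3.

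How far the probe sets of a gene agreed was counted where a gene had several. Here another probe set counts as measured when it exceeded the floor on each array. Of 18 members with another measured probe set, all probe sets of 9 had the same sign. The 2 of them past 1.5-fold, Gclm and Gss, were among these 9, and of the 16 within 1.5-fold, 7 were. The brightest pair of probe sets had the same sign in 10 of the 18 (55.6%), while the share was 63.9% for the whole array. Gstm7, Gstm2, Gsta2, Gsta3, Gpx2, Gstt2, Gstt3 and Gstz1, the other members past 1.5-fold, had no other probe set that exceeded the floor on each array, so these results rest on a single probe set. Gstm7 had another that exceeded it in the null array alone.

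The genes around these systems were read from a list of other redox genes, of which 151 were on the array with 1 symbol and 129 were measured. Of these, 1 was 2-fold higher and 5 were 2-fold lower, together 4.65%. Over all measured genes 1.59% were higher and 1.8% lower, together 3.39%, close to that share. The median log2 ratio of the other redox genes was -0.04. In the class for glutathione supply, transport and breakdown 17 of 22 measured genes were below 0, as were 47.7% of all genes. The class had a median of -0.29, and 3 were 2-fold lower, as were 1.8% of all genes. Chac2, a cyclotransferase that degrades glutathione in the cytosol, had 236 in the null and 514 in the control array, 2.17-fold lower. Anpep, an aminopeptidase of the cell surface that cleaves peptides, had 371 in the null and 818 in the control array, 2.20-fold lower. Hpgds, the sigma class transferase that makes prostaglandin D2, had 27.0, under the floor, in the null and 82.9 in the control array, at least 2.76-fold lower. The log2 ratio of Hpgds was -0.96 with log2(signal + 32) and -0.03 with the 65th percentile floor, each under 2-fold. Hpgds is known from mast cells and macrophages. Of the smaller ratios, Ggct, the gamma-glutamyl cyclotransferase, had -0.76, the conjugate exporter gene Abcc3 -0.74, and Ggt5, a gamma-glutamyl cleaving enzyme, 0.92 with another probe set of opposite sign.

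The other classes held single genes past 2-fold or none. Hp, the hemoglobin-binding haptoglobin, had 73.5 in the null and 237 in the control array, 3.22-fold lower. Among the genes of its class the metallothionein gene Mt1 had 5129.8 in the null and 3358 in the control array on an _s_at probe set (log2 ratio 0.61), but 0.14 on its other probe set, within 1.5-fold. In the same class Mt2 had -0.02, the ceruloplasmin gene Cp -0.72 and the heme-binding protein gene Hebp1 -0.76. Nfe2l3, an Nrf2 relative, had 34.1 in the null and 72.0 in the control array, 2.11-fold lower and near the floor, but -0.65 with log2(signal + 32). Sesn2, a stress-induced sestrin, had 64.5 in the null and 28.7, under the floor, in the control array, at least 2.08-fold higher. Another probe set of Sesn2 had the opposite sign, and its log2 ratio was 0.26 with the median over probe sets and 0.67 with log2(signal + 32), each under 2-fold. Of 14 measured oxidant-producing enzymes 12 were below 0, as were 47.7% of all genes, with a median of -0.31 and none past 2-fold. Noxo1 was among the 12 only through the floor, with 30.3 in the null and 26.8, under the floor, in the control array. The oxidase gene Nox4 had -0.76 and was unmeasured with the 65th percentile floor. The D-aspartate oxidase gene Ddo had 0.72, or 0.14 with that floor, and the endothelial nitric oxide synthase gene Nos3 -0.67. Txnip, the thioredoxin-binding protein, had 1303 in the null and 2207 in the control array (-0.76), and its other probe set had the same sign. The 12 NADPH-supplying and 14 selenoprotein genes were all within 1.5-fold, with medians of 0.16 and 0.02.

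**Figure D4:**
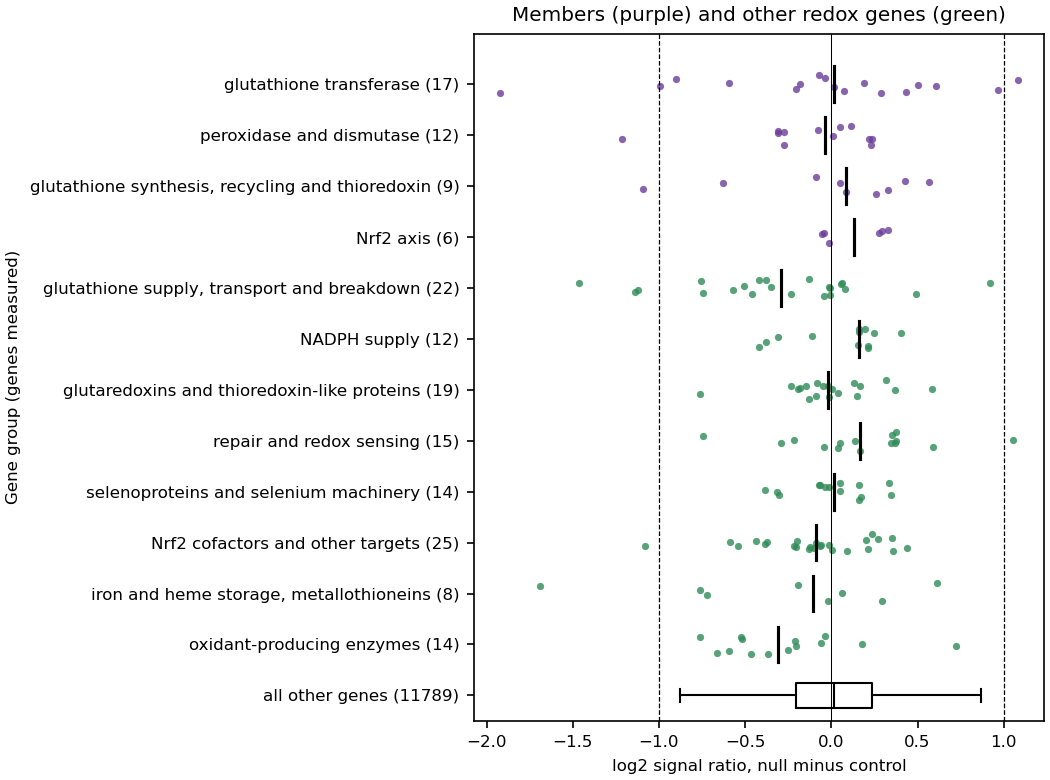
Log2 signal ratio, null minus control, of each measured member (purple) and each other redox gene (green) by group, with the group's median as a black line; the box shows the quartiles of all 11789 other genes (-0.21 and 0.24) and its whiskers the central 95% (-0.88 to 0.87). Dashed lines mark 2-fold. The transferases spread from -1.92 to 1.08 around a median near 0, and the groups for glutathione supply and for oxidant-producing enzymes have medians of -0.29 and -0.31.

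Some markers of other cells and of RNA quality moved with the genotype. As a check of the labels, Msx1 had 23.0, under the floor, in the null and 1581 in the control array, and Msx2 had 14.5 and 63.7 in the null and control arrays. All 9 stromal markers were measured, 7 of them above 0 with a median of 0.21, and Hoxa11 (0.80) and Hand2 (0.63) passed 1.5-fold. Another measured probe set of Hand2 gave -0.01. Summed signals below are of the brightest probe sets. The summed signals of the 9 stromal markers were 47730 in the null and 46484 in the control array. Of 9 measured epithelial markers 7 were below 0, with summed signals of 6730.2 in the null and 8778 in the control array. The median of the list was -0.10. The gland factor gene Foxa2 was 4.54-fold lower and the keratin gene Krt18 2.09-fold lower, while the keratin gene Krt19 was 2.05-fold higher and the epithelial transcription factor gene Elf3 1.75-fold higher, so the list did not go one way. All 9 macrophage and all 6 endothelial markers were lower (medians -0.50 and -0.76), and all 5 natural killer and 5 of 6 smooth muscle markers were higher (0.71 and 0.40). The 3 measured neutrophil markers of 5 were lower (median -0.54). Of all measured genes, 52.3% were above 0 and 47.7% below. All 8 immediate early genes, which tissue handling can induce, were lower, with a median of -0.78, and Egr3, Atf3 and Egr2 passed 2-fold with -1.51, -1.35 and -1.16. None of the 4 erythroid markers found was above the floor in either array; Prdx2, Cat and Gpx1 are genes abundant in red cells. The 3'/5' ratio of Gapdh was 1.28 in the null and 0.967 in the control array, and that of the actin control was 2.33 in the null and 1.80 in the control array. Gpx2, Gsta2 and Hpgds are expressed by epithelial or immune cells in other tissues, and the part of these cells, of handling or of RNA quality in any ratio above was not tested. In pooled preparations of stromal cells, fewer cells of a type and less RNA per cell cannot be told apart.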

How the data were processed

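The deposited intensity values are linear MAS5 signals. Per the submitters' processing notes, the authors ran MAS5 within Affymetrix Expression Console 1 on 1 array per genotype. Settings for background and scaling are not given in the sources used here. Each column had a mean of 150.0 once 2% of its probe sets were trimmed at each end, so the arrays share a scale. MAS5 ratios of dim probe sets are noisy. Of 45101 probe sets, 34945 had 1 gene symbol in the platform annotation, 932 several and 9160 none; 64 were control probe sets.

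Ratios, null minus control, were taken on log2 signals as deposited, with no new scaling. Each gene was represented by its brightest probe set, by mean log2 signal. The floor was the 50th percentile of non-control probe sets of each array, and 11833 of 18193 genes had a signal above it. Genes were called by size, at 2-fold and 1.5-fold, since 1 array per genotype allows no test; the array number limits the precision. The calling code was tested on simulated data with changes larger than 2-fold in brighter genes. That test did not cover dim genes or ratios near the cut-offs. All measured members are accounted for, with both signals for those past 1.5-fold, for pathway hubs and for the brightest; other redox genes are named when past 2-fold, with up to 3 more per class, and Mt2 and the single marker genes with values were added after their values were seen. The members and lists were chosen with earlier results of these data known. The 53 members matched the RefSeq gene table, and no build was given for the probes. Alternatives were the floor, the choice of probe set, the scaling and a pseudocount. Python 3.11.15, pandas 2.3.3 and numpy 2.4.6 were used.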

Additional observations from a re-analysis of the deposited data

How the results depend on the processing

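No paired analysis was possible because each genotype had 1 array. Medians near 0 turned with the processing; the cause was not tested. All 10 members past 1.5-fold kept their sign under every alternative that measured them, while 10 others changed sign, the largest of them at 0.33. Apart from Gclm, Gss and Gstm7, the members past 1.5-fold had a single measured probe set, which every such alternative reused. Their sign could hardly change, so its keeping does not show that these ratios are robust. Members 2-fold higher numbered 1, against 3 with no floor, 0 with the median over probe sets or log2(signal + 32), and 2 with median centring or quantile normalization. Members 2-fold lower numbered 3, or 5 with no floor and 2 without _x_at, _s_at and _a_at probe sets. At 1.5-fold, 3 members were higher, or 6 with no floor, 4 with median centring and 2 with the 65th percentile floor. Those 1.5-fold lower numbered 7, or 11 with no floor and 6 with the median over probe sets or quantile normalization. They numbered 5 with median centring, with log2(signal + 32) or without those probe sets. With median centring Gss (-0.584) and Gstt3 (-0.545) fell just under 1.5-fold. The other redox genes 2-fold higher numbered 1, or 6 with no floor and 0 with the 65th percentile floor, the median over probe sets or log2(signal + 32); those lower numbered 5, or 9 with no floor and 3 with the 65th percentile floor or log2(signal + 32). Over all genes, 188 higher and 213 lower became 1797 and 1772 with no floor, 97 and 123 with the 65th percentile floor, and 99 and 129 with log2(signal + 32).

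The members' median of 0.03 was -0.018 with the median over probe sets and 0.076 with median centring. For the transferases, 0.012 became -0.035 with no floor, -0.011 with the 65th percentile floor, -0.013 with quantile normalization and 0.19 without _x_at, _s_at and _a_at probe sets. For peroxidases and dismutases, -0.036 became -0.13 without those probe sets and 0.010 with median centring. For glutathione synthesis with thioredoxin, 0.086 became -0.0035 with the median over probe sets and 0.26 without those probe sets. For the Nrf2 axis, 0.13 became -0.029 with the median over probe sets and -0.042 without those probe sets.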
